A study of Mus musculus with 7 samples.

Results

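The keratin genes were examined in RNA sequencing of the whole mouse uterus. Every gene symbol made of Krt and a number was taken from the deposited expression table, which gave 51 keratin genes of 24964 listed. Symbols with a letter after the number, such as Krt6a, fell outside this rule. The members were sorted by their usual place in epithelia. Of the 51, 4 were simple keratins (Krt7, Krt8, Krt18 and Krt19), 3 basal (Krt5, Krt14 and Krt15), 15 suprabasal (Krt4, Krt13 and 13 others), 5 other simple or unplaced, and 24 hair and root sheath keratins.

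Keratins are the intermediate filament proteins of epithelial cells. Each filament is built from pairs of an acidic type I and a basic type II keratin. Simple epithelia, such as the lining and glands of the uterus, mainly use Krt8 with Krt18, joined by Krt7 and Krt19. In stratified epithelia the basal layer uses Krt5 with Krt14, the layers above it switch to other pairs such as Krt4 with Krt13 or Krt1 with Krt10, and the hair keratins serve the hair shaft and nail.

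The study compared 2 genotypes in mice aged 12 weeks, all recorded in diestrus. The 3 controls, numbered 1, 2 and 4, were Pgrcre/+, with Cre recombinase at the progesterone receptor locus. The 4 libraries called Foxl2LsL, numbered 1 to 4, were Pgrcre/+Foxl2LsL/+, so both groups carried the Cre allele and no group carried Foxl2LsL without it. Several uterine cell types express the receptor whose locus drives Cre, so the allele is not aimed at epithelium alone. The labels do not say outright that each library is a separate animal, and the p-values measure the spread between these libraries. The series title speaks of FOXL2 overexpression.

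Foxl2 itself (chromosome 9, 98955288 to 98958543, plus strand, GRCm38) was at 11.1, 19.3 and 12.9 FPKM in controls 1, 2 and 4. FPKM means fragments counted on a gene, scaled by gene length and by library depth. It was at 12.7, 14.3, 14.8 and 17.2 FPKM in the libraries labelled Foxl2LsL 1 to 4. The groups overlapped and the difference did not pass the test (log2 fold change 0.06, SE 0.18, adjusted p = 0.818, limma). Every direction below is therefore given for the libraries as labelled.

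Each library had a denominator of 47800000 to 67300000 fragments, recovered from the table. The uterine genes Pgr (23.8 to 39.0 FPKM), Esr1 (34.4 to 60.3 FPKM), Hoxa10 (22.6 to 123 FPKM) and Hoxa11 (10.4 to 83.5 FPKM) were present in every library. Their levels were not all stable. Past an adjusted p of 0.05 Esr1 was higher and Hoxa10 and Hoxa11 lower in the Foxl2LsL libraries, and Pgr did not pass (limma). Over all tested genes 16.7% were higher and 23.9% lower. Hoxa10 was at 42.0 to 123 FPKM in controls and 22.6 to 27.8 FPKM in Foxl2LsL libraries. Control 4 had the lowest summed FPKM of 15 epithelial marker genes (566, against 656 in control 2 and 997 in control 1) and the highest summed smooth muscle markers among the controls (1643, against 827 and 900). It was the lowest control in 11 of the 15 epithelial markers and in 9 of the 11 tested keratins. In whole tissue, fewer epithelial cells and less RNA per epithelial cell cannot be told apart.

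Of the 51 keratins, 11 had a mean of at least 1 FPKM over the 7 libraries and were tested, and 40 fell below that filter. Among the 11, 5 were higher (Krt7, Krt13, Krt18, Krt80 and Krt83) and 1 was lower (Krt23) in the Foxl2LsL libraries at an adjusted p under 0.05 (limma, Benjamini-Hochberg over 13334 genes). Over all tested genes 40.6% were called, 16.7% higher and 23.9% lower. The median log2 fold change of the 11 was 0.53, beside -0.05 over all tested genes. The groups did not overlap in 5 of the 11 (Krt13, Krt18, Krt80 and Krt83 higher, Krt23 lower), against 47.6% of tested genes, 19.7% higher and 27.9% lower. The filter removed 40 members, so these counts cover the abundant keratins. Of the 51, 21 had at least 3 recovered fragments in all 7 libraries, 11 had fewer than 3 in every library, and 6 of those were listed at 0 throughout.

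**Figure D1:**
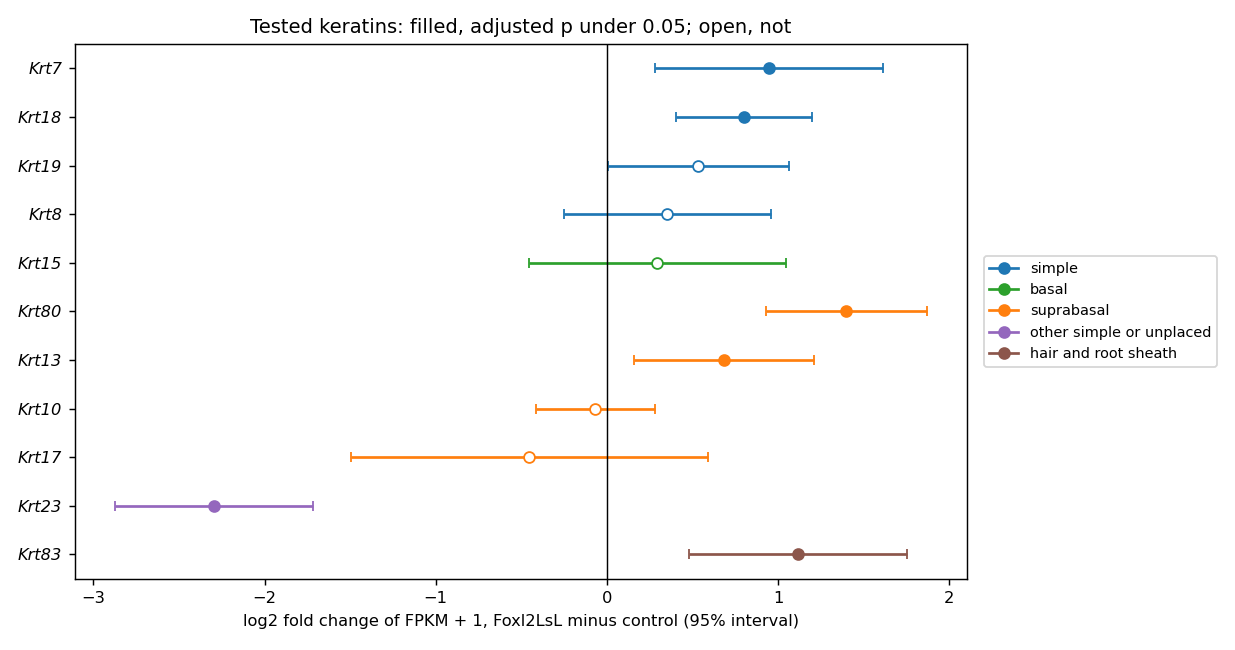
Change of the 11 tested keratins between the genotypes, as the log2 fold change of FPKM + 1 (Foxl2LsL minus control) on the horizontal axis with its 95% interval from limma, coloured by keratin class. Krt80 lies furthest to the right at 1.40 and Krt23 furthest to the left at -2.30, while the intervals of Krt8, Krt15, Krt10 and Krt17 cross 0.

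The simple keratins made up nearly all keratin RNA, between 93.5% and 96.3% of summed keratin FPKM in each library. Krt18 and Krt7 rose in the Foxl2LsL libraries, whereas Krt19 and Krt8 did not pass the test. Their summed level was 892, 654 and 434 FPKM in controls 1, 2 and 4 and 1049, 777, 1018 and 964 FPKM in Foxl2LsL 1 to 4. Control 1 lay above Foxl2LsL 2, so these sums overlapped.

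Krt18, the type I partner of simple epithelium, lies on chromosome 15 from 102028180 to 102032027 on the plus strand. It is the only type I keratin among the members located outside the chromosome 11 cluster. It was at 154, 122 and 92.9 FPKM in controls 1, 2 and 4 and at 221, 192, 242 and 193 FPKM in Foxl2LsL 1 to 4. Every Foxl2LsL library was above every control. The log2 fold change was 0.80 (SE 0.17, adjusted p = 0.00854, limma), a ratio of means of 1.72, and the adjusted p stayed between 0.00402 and 0.0340 over 17 alternatives. When the filter was dropped and 1 library left out at the same time, the call was lost for each library but control 1. The promoter of Krt18 is shown because it is the simple keratin whose groups did not overlap. The 200 bases from 250 to 51 before the RefSeq start are chr15:102027966-102028165, plus strand, GRCm38.p6, written 5′ to 3′ with capitals reserved for motif matches.
Krt18: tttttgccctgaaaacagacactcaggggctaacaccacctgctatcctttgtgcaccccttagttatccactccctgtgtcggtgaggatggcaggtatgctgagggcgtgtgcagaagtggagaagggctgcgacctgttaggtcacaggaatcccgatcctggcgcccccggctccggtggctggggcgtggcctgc
The motifs searched, on both strands, were the forkhead core TGTTTA, the GC box GGGCGG, the TATA box TATAAA and the AP-1 motif TGANTCA. Krt18 held none of them in this window. Over 32851 promoter windows of this length, 10.3% held the forkhead core, 24.6% the GC box, 9.14% the TATA box and 5.57% the AP-1 motif.

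Krt8, the type II partner of Krt18, is the next keratin gene on chromosome 15 (101996698 to 102004482, minus strand). It was at 317, 223 and 141 FPKM in controls 1, 2 and 4 and at 308, 214, 295 and 296 FPKM in Foxl2LsL 1 to 4. Control 1 was the highest of all 7 libraries and control 4 the lowest. The log2 fold change was 0.35 with a 95% interval from -0.25 to 0.96 (adjusted p = 0.311, limma), an interval that holds the 0.80 of Krt18. In the reference transcripts 29.7% of the 50-base words of Krt8 also occur in another gene, so reads may be split between the copies. The gene sharing the most of these words is the pseudogene Krt8-ps.

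Krt7 stood higher against Krt8 in every Foxl2LsL library (ratios of 0.393 to 0.469) than in any control (0.266 to 0.288). That ratio was not planned and was not tested. The ratio of Krt19 to Krt18, also unplanned, overlapped between the groups (1.74 to 2.15 in controls, 1.48 to 1.81 in Foxl2LsL libraries). The ratio of Krt8 to Krt18 was 2.05, 1.82 and 1.52 in controls 1, 2 and 4 and 1.39, 1.116, 1.22 and 1.53 in Foxl2LsL 1 to 4. Control 4 and Foxl2LsL 4 were close, and the groups overlapped there. The mean log2 ratio differed by -0.45, Foxl2LsL minus control (two-sided exact permutation p = 0.114, where 0.0571 is the smallest p that 3 against 4 libraries allow).

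Krt7, a type II keratin of ducts and glands (chromosome 15, 101411043 to 101430313, plus strand), was at 89.1, 64.3 and 37.5 FPKM in controls 1, 2 and 4. Levels in Foxl2LsL 1 to 4 were 144, 87.1, 116 and 126 FPKM. Foxl2LsL 2 lay just under control 1, so the groups overlapped. The log2 fold change was 0.95 (SE 0.29, adjusted p = 0.0327, limma), and without control 4 it was 0.61. This call was lost when control 2, control 4 or Foxl2LsL 1, 3 or 4 was left out and in the fit without a filter, with adjusted p from 0.0116 to 0.1002 over 17 alternatives (limma).

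Krt19, the smallest keratin, lacks most of the tail domain. The gene (chromosome 11, 100140810 to 100148665, minus strand) was at 331, 244 and 162 FPKM in controls 1, 2 and 4 and at 377, 284, 365 and 349 FPKM in Foxl2LsL 1 to 4. It was the most abundant keratin per length in every library. Control 1 exceeded Foxl2LsL 2, and the log2 fold change of 0.53 (95% interval 0.01 to 1.061) had an adjusted p of 0.0966 (limma). Without control 1 it was 0.78 with an adjusted p of 0.0196, within a range of 0.0196 to 0.238 over 17 alternatives.

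**Figure D2:**
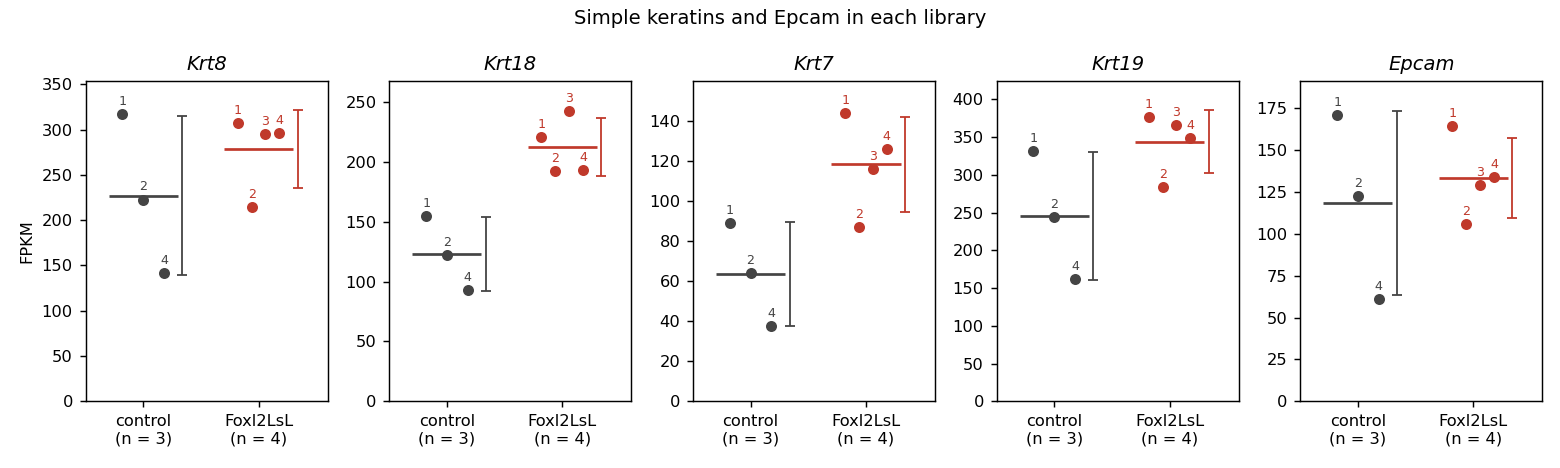
FPKM (vertical axis, from 0) of the simple keratins and of Epcam in each of the 7 libraries, with points numbered by replicate, horizontal lines for group means and bars for SD (n = 3 and n = 4). All Foxl2LsL points of Krt18 lie above all controls, whereas control 1 reaches into the Foxl2LsL range for Krt7, Krt8, Krt19 and Epcam.

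The general epithelial genes give the scale for these levels. Epcam, an adhesion protein of most epithelia, was at 171, 122 and 61.2 FPKM in controls 1, 2 and 4 and at 164, 106, 129 and 134 FPKM in Foxl2LsL 1 to 4. Cdh1, which encodes E-cadherin, was at 121, 87.1 and 70.4 FPKM and at 96.1, 67.7, 89.3 and 92.3 FPKM. Neither passed the test (adjusted p = 0.524 and 0.769, limma), and in both genes control 4 was the lowest control and control 1 the highest.

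Relative to the mean log2 level of the 15 epithelial markers, Krt7 was higher by 0.39 on the log2 scale in the Foxl2LsL libraries and its groups did not overlap. Its two-sided exact permutation p was 0.0571, the smallest possible here, and 0.229 after Benjamini-Hochberg adjustment over the 4 simple keratins. Krt18 was higher by 0.24 (exact permutation p = 0.171), Krt8 differed by -0.22 (exact permutation p = 0.171) and Krt19 differed by -0.04 (exact permutation p = 0.629), all with overlapping groups. Of these markers 5 of 15 were themselves higher past the threshold (Elf3, Ehf, Esrp2, Grhl2 and Rab25) and 0 lower (limma). Over all tested genes 16.7% were higher and 23.9% lower. The markers had a median log2 fold change of 0.46, beside -0.05 over all tested genes. Against Epcam alone, Krt7 was higher by 0.68, with levels of -0.94, -0.93 and -0.71 in controls 1, 2 and 4 and of -0.19, -0.28, -0.16 and -0.08 in Foxl2LsL 1 to 4.

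The basal keratins were all low, and Krt5 was nearly absent from the controls. Krt5 and Krt14 are the usual pair of basal cells. Krt5 (chromosome 15, 101707070 to 101712898, minus strand) was at 0.058, 0.034 and 0.042 FPKM in controls 1, 2 and 4, which is 8, 5 and 6 fragments. It was at 2.22, 0.669, 0.483 and 2.16 FPKM in Foxl2LsL 1 to 4, from 319, 70, 64 and 248 fragments. The lowest Foxl2LsL library was far above the highest control, and Foxl2LsL 1 and 4 were well above 2 and 3.

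The control mean of Krt5 was 0.0447 ± 0.0122 FPKM (SD, n = 3), and that of the Foxl2LsL libraries was 1.38 ± 0.935 FPKM (SD, n = 4), a ratio of 31.0. Krt5 had a mean under 1 FPKM over all libraries and was left out of the main test. Fitted without that filter, its log2 fold change on the FPKM + 1 scale was 1.10 (adjusted p = 0.0674, limma), and limma-voom applied to recovered fragments gave 4.598 (adjusted p = 0.0124). Over 12 alternatives the adjusted p ranged from 0.0124 to 0.166. In the reference 12.2% of its 50-base words are shared, and Krt6a is the gene sharing the most of them. Krt6a and Krt6b, which lie beside Krt5 and fall outside the rule, were at most at 0.008 and 0.051 FPKM.
The promoter of Krt5 is shown because this gene went from a few fragments to a clear signal (chr15:101712956-101713155, minus strand, GRCm38.p6, 250 to 51 bases before the RefSeq start). It held none of the motifs named above.
Krt5: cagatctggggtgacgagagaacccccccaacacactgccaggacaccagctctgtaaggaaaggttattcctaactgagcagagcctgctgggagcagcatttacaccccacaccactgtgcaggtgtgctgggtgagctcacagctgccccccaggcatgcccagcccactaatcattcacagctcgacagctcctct

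Krt14 (chromosome 11, 100203162 to 100207548, minus strand) was at 0.468, 0.164 and 0.089 FPKM in controls 1, 2 and 4 and at 0.222, 0.170, 0.019 and 0.133 FPKM in Foxl2LsL 1 to 4. These rest on 2 to 51 fragments, and the groups overlapped. Krt15, a basal keratin that also marks stem cells of the hair follicle (chromosome 11, 100131758 to 100135928, minus strand), was at 3.62, 2.90 and 0.691 FPKM in controls 1, 2 and 4. Foxl2LsL 1 to 4 gave 2.66, 3.44, 3.05 and 2.28 FPKM. Control 4 alone stood below 1, and the difference did not pass the test (log2 fold change 0.30, SE 0.32, adjusted p = 0.497, limma). Its sign turned without control 4, to -0.15 (adjusted p = 0.445, range 0.188 to 0.689 over 16 alternatives). Trp63, the transcription factor that defines basal cells, lay between 0.149 and 0.398 FPKM in all 7 libraries with overlapping groups, and was below the filter.

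Of the 15 suprabasal keratins, 4 were tested, and 2 of them rose. Over all tested genes 40.6% were called, 16.7% higher, so this count says little about the class. Krt80 and Krt13 were higher, Krt10 and Krt17 did not pass the test, and the members below the filter moved in both directions. Krt80, a filament protein linked to desmosomes in many epithelia (chromosome 15, 101347444 to 101370162, minus strand), was at 5.82, 4.02 and 3.94 FPKM in controls 1, 2 and 4. Levels in Foxl2LsL 1 to 4 were 10.9, 11.1, 18.7 and 14.99 FPKM. The lowest Foxl2LsL library stood well above the highest control. Krt80 rose by 1.40 on the log2 scale (SE 0.20, adjusted p = 0.00190, limma), and the adjusted p was 0.00167 to 0.0209 over 17 alternatives.

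Krt13, a marker of the upper layers of non-cornified stratified epithelium (chromosome 11, 100117327 to 100121566, minus strand), was at 2.39, 1.69 and 0.658 FPKM in controls 1, 2 and 4. Foxl2LsL 1 to 4 gave 3.34, 2.70, 2.65 and 3.22 FPKM. The groups did not overlap, but control 1 lay close to the lowest Foxl2LsL library. The log2 fold change was 0.68 (SE 0.23, adjusted p = 0.0447, limma), and without control 4 it fell to 0.39. The call was lost when any library but control 1 was left out, with pseudocount 0.1, without the filter and in limma-voom. Over 16 alternatives the adjusted p was 0.0135 to 0.119.

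Krt4, the type II partner of Krt13 (chromosome 15, 101918535 to 101924735, minus strand), went the other way. It was at 0.436, 0.655 and 0.314 FPKM in controls 1, 2 and 4, from 44 to 94 fragments. It was at 0.021, 0.069, 0.046 and 0.054 FPKM in Foxl2LsL 1 to 4, from 3 to 7 fragments. Every Foxl2LsL library was below every control, and the control mean was 9.86 times the Foxl2LsL mean. Without the filter its log2 fold change on the FPKM + 1 scale was -0.48 (SE 0.08, adjusted p = 0.0113, limma), and limma-voom applied to recovered fragments gave -3.26 (adjusted p = 0.00210). Over 12 alternatives the adjusted p was 0.00210 to 0.101.

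Krt1 and Krt10 form the pair of cornified epidermis. Krt1 (chromosome 15, 101845426 to 101850794, minus strand) was at 0.090, 0.085 and 0.212 FPKM in controls 1, 2 and 4 and at 1.45, 1.05, 1.30 and 1.51 FPKM in Foxl2LsL 1 to 4. All Foxl2LsL libraries lay well above all controls, with 123 to 232 fragments against 14 to 34. The ratio of means was 10.3. Without the filter the log2 fold change on the FPKM + 1 scale was 1.04 (SE 0.08, adjusted p = 0.00235, limma), and the adjusted p was 0.000638 to 0.0765 over 12 alternatives. Krt1 was named after its values were seen. Krt10 (chromosome 11, 99385254 to 99389364, minus strand) was at 3.70, 5.47 and 6.14 FPKM in controls and at 5.12, 5.08, 4.75 and 4.07 FPKM in Foxl2LsL 1 to 4. The groups overlapped throughout (log2 fold change -0.07, 95% interval -0.42 to 0.28, adjusted p = 0.748, limma).

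Krt17, a keratin of stressed and wounded epithelium (chromosome 11, 100256217 to 100261029, minus strand), was at 5.63, 1.84 and 0.422 FPKM in controls 1, 2 and 4. Levels in Foxl2LsL 1 to 4 were 1.55, 0.943, 1 and 1.30 FPKM. Controls 1 and 4 were the highest and the lowest of all 7 libraries. For Krt17 the log2 fold change was -0.45 (SE 0.45, adjusted p = 0.453, limma). It was -0.99 without control 4 (adjusted p = 0.0397) and 0.12 without control 1 (adjusted p = 0.757), the ends of its range over 16 alternatives. The other 9 suprabasal keratins below the filter had overlapping groups. Among them Krt79, a keratin of hair follicle ducts, was at 1.11, 0.525 and 0.109 FPKM in controls 1, 2 and 4, against 0.040 to 0.291 FPKM in the Foxl2LsL libraries.

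**Figure D3:**
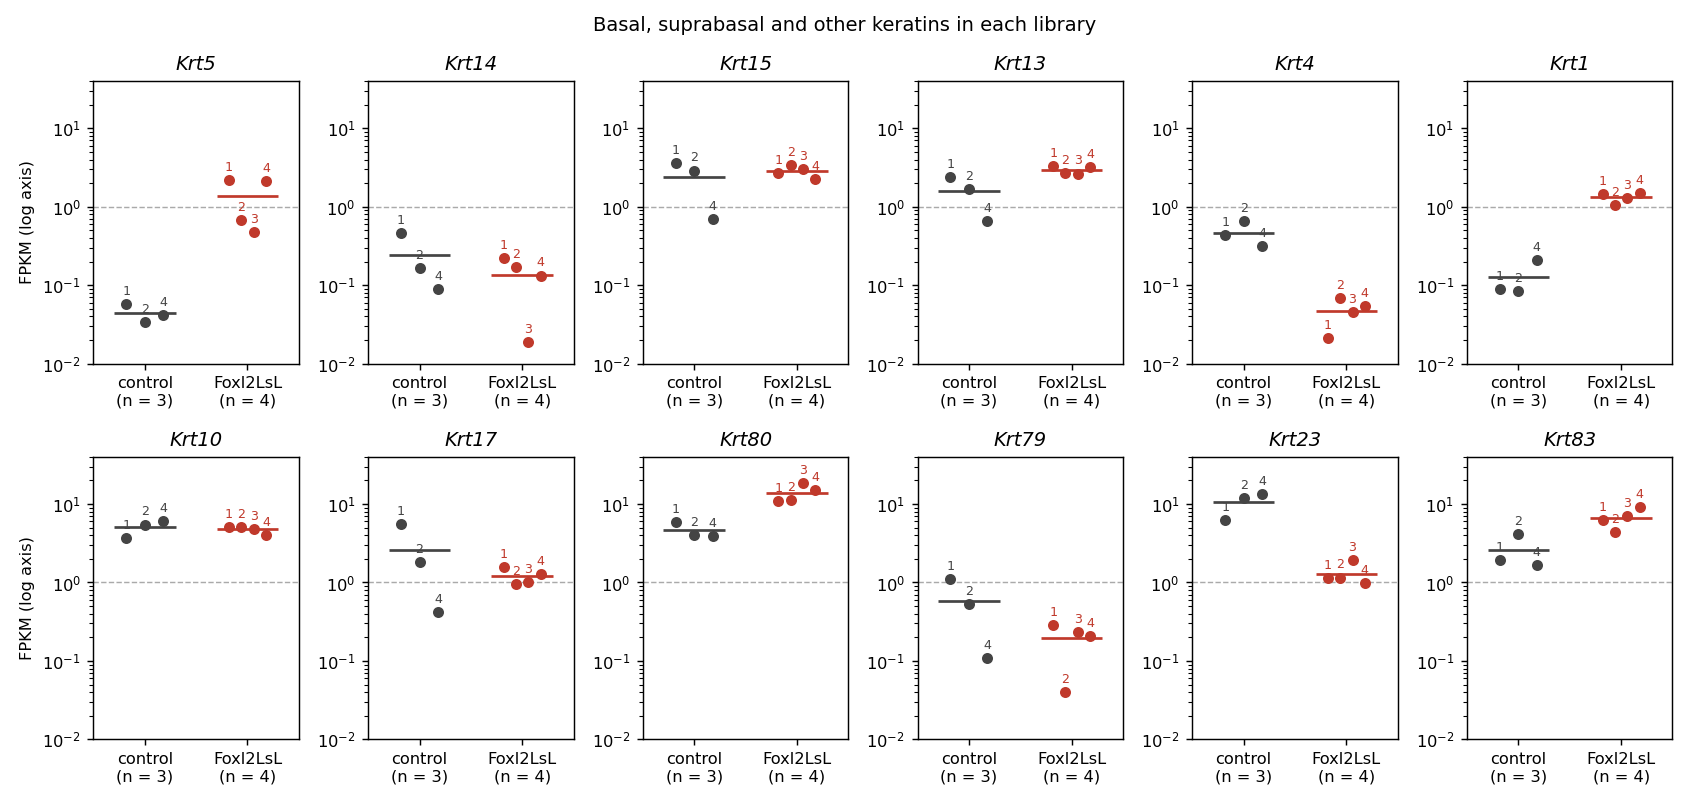
FPKM (vertical log axis) of 12 basal, suprabasal and other keratins in each library, with points numbered by replicate, horizontal lines for group means (n = 3 and n = 4) and a dashed line at 1 FPKM. Krt5 and Krt1 lie wholly higher and Krt4 and Krt23 wholly lower in the Foxl2LsL libraries, while control 4 is the lowest of the controls for Krt15, Krt13, Krt17 and Krt79.

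Krt23 was the 1 tested keratin that fell. It encodes a type I keratin found in some simple and glandular epithelia and lies on chromosome 11 from 99477974 to 99493137 on the minus strand. It was at 6.30, 12.0 and 13.6 FPKM in controls 1, 2 and 4 and at 1.14, 1.16, 1.91 and 0.977 FPKM in Foxl2LsL 1 to 4. Even the lowest control stood well above the highest Foxl2LsL library. On the log2 scale Krt23 changed by -2.30 (SE 0.25, adjusted p = 0.000678, limma), the control mean was 8.20 times the Foxl2LsL mean, and the adjusted p was 0.000341 to 0.0138 over 17 alternatives. In contrast to most tested keratins, control 4 was the highest control here.
The promoter of Krt23 is shown as that of the tested keratin that fell (chr11:99493171-99493370, minus strand, GRCm38.p6, 250 to 51 bases before the RefSeq start). The capitals mark a match to the forkhead core on the opposite strand, beginning 159 bases before the start.
Krt23: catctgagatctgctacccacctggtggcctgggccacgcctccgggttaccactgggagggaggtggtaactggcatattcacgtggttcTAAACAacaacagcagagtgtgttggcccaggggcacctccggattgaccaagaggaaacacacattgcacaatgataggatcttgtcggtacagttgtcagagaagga
The forkhead core occurred in 9 of 36 keratin windows (25%), which came from 35 genes, beside 10.3% of all 32851 windows. The GC box was in 1 of the 36 (2.78%, beside 24.6%) and the TATA box in 4 (11.1%, beside 9.14%). The AP-1 motif was in 2 (5.56%, beside 5.57%). These shares were not tested. A match of this kind describes the letters only.

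Several markers of uterine glands were also lower. Of 7 listed gland markers 4 were tested. Past the threshold 3 were lower (limma), beside 23.9% of all tested genes: Foxa2, Cxcl15 and Aldh1a1. The fourth, Wfdc3, did not pass (adjusted p = 0.134, limma). Of the 3 below the filter, Prss29 was higher in every Foxl2LsL library (0.032 to 0.168 FPKM, against 0 to 0.025 FPKM), and Prss28 and Spink1 had overlapping groups. Cxcl15, a chemokine of the gland epithelium, went from 21.9, 30.2 and 31.4 FPKM in controls 1, 2 and 4 to 3.32, 4.05, 5.27 and 4.43 FPKM in Foxl2LsL 1 to 4, and the groups lay far apart. The summed gland markers were 72.3 to 95.8 FPKM in controls and 19.4 to 23.8 FPKM in Foxl2LsL libraries. The part of gland content in the Krt23 values was not tested.

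Of the other 4 simple or unplaced keratins, Krt20 had overlapping groups and Krt42 was listed at 0 in every library. Krt90 was at 1.36, 0.575 and 0.132 FPKM in controls 1, 2 and 4 and at 0.048, 0.017, 0.039 and 0.083 FPKM in Foxl2LsL 1 to 4. The groups did not overlap, although control 4 came near. Krt222 was at 0.225 to 0.387 FPKM in controls and 0.078 to 0.148 FPKM in Foxl2LsL libraries, again without overlap.

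The hair and root sheath keratins were mostly at the edge of detection. Of 24, 7 had fewer than 3 fragments in every library, and Krt83 alone passed the filter. Krt83, a type II hair keratin (chromosome 15, 101485130 to 101491512, minus strand), was at 1.95, 4.16 and 1.67 FPKM in controls 1, 2 and 4 and at 6.19, 4.40, 6.94 and 9.05 FPKM in Foxl2LsL 1 to 4. The groups did not overlap, with control 2 just under Foxl2LsL 2. It rose by 1.117 on the log2 scale (SE 0.27, adjusted p = 0.0148, limma). The call was lost without the filter (adjusted p = 0.0556, range 0.00805 to 0.0982 over 16 alternatives).

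Its neighbour Krt86 had 2, 8 and 0 fragments in controls 1, 2 and 4 and 24, 23, 21 and 25 fragments in Foxl2LsL 1 to 4, so it was detected in every Foxl2LsL library. In the reference transcripts 22.1% of the 50-base words of Krt83 and 43.3% of those of Krt86 occur in another gene, so their values are uncertain. The gene sharing the most words is Krt86 for Krt83 and Krt81 for Krt86. Krt84, a type II keratin of nail and tongue, had 10, 5 and 0 fragments in controls 1, 2 and 4 and 227, 11, 21 and 110 in Foxl2LsL 1 to 4, again highest in Foxl2LsL 1 and 4. Krt25, a root sheath keratin, had 156, 82 and 7 fragments in the controls and 1, 0, 0 and 2 in Foxl2LsL 1 to 4. Groups did not overlap in 8 of the 24 hair and root sheath keratins, beside 31.8% of all listed genes. Krt31, Krt82, Krt83, Krt84 and Krt86 were higher, and Krt25, Krt32 and Krt35 lower. Krt32 had 3, 1 and 5 fragments in controls 1, 2 and 4 and 0 in every Foxl2LsL library. Krt35 had 7, 5 and 31 in the controls and 0, 1, 2 and 1 in Foxl2LsL 1 to 4. Krt86, Krt84, Krt79, Krt25, Krt31, Krt32, Krt35, Krt82, Krt90 and Krt222 were named after their values were seen.

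Fitted with no filter on low values, 9 of the 51 keratins passed an adjusted p of 0.05 (limma), against 21.0% of all 24964 genes, 8.71% higher and 12.2% lower. Of these 6 were higher (Krt1, Krt18, Krt31, Krt80, Krt82 and Krt86) and 3 lower (Krt4, Krt23 and Krt222). In limma-voom on genes with at least 10 recovered fragments, 14 of 38 keratins passed, 9 higher and 5 lower, against 33.4% of 18760 genes, 14.1% higher and 19.3% lower. Groups did not overlap in 17 of the 51, against 31.8% of all listed genes, with 10 higher (13.6% of all genes) and 7 lower (18.2%). Over both directions together, these shares were close to those of all genes.

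The sums by filament type rested on a few genes. Leaving out Krt18 and Krt19, the summed type I level was 25.0, 26.5 and 23.2 FPKM in controls 1, 2 and 4 and 16.6, 15.5, 14.7 and 13.1 FPKM in Foxl2LsL 1 to 4. Leaving out Krt7 and Krt8, the summed type II level was 11.46, 10.97 and 7.01 FPKM in controls and 23.7, 18.3, 29.0 and 30.5 FPKM in Foxl2LsL 1 to 4. Neither sum overlapped between the groups. Without Krt23 as well, the type I sum was 9.63 to 18.7 FPKM in controls and 12.2 to 15.4 FPKM in Foxl2LsL libraries. Without Krt80 and Krt83 as well, the type II sum was 1.39 to 3.69 FPKM in controls and 2.82 to 6.67 FPKM in Foxl2LsL libraries. Both of these sums overlapped, and single members went against their type, with Krt13 (type I) higher and Krt4 and Krt90 (type II) lower in every Foxl2LsL library. With all members included, type I exceeded type II 1.35 ± 0.140 times (SD, n = 3) among the controls and 1.37 ± 0.138 times (SD, n = 4) among the Foxl2LsL libraries, a difference smaller than the spread.

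Position in the genome followed type. GENCODE M21 placed 50 of the 51 members, 25 on chromosome 11 and 25 on chromosome 15, the latter including Krt18. Krt85 was not located. Genes on the opposite strand overlap 1.09% to 6.91% of the exon bases of Krt5, Krt7, Krt8, Krt10, Krt80 and Krt90, and 54.4% of those of Krt12. Without a stated use of strand, reads from such partners cannot be told apart. Of the called members, Krt13 and Krt23 lie on chromosome 11. On chromosome 15 Krt80 and Krt7 stood next to each other at one end, Krt18 at the other and Krt83 between them.

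**Figure D4:**
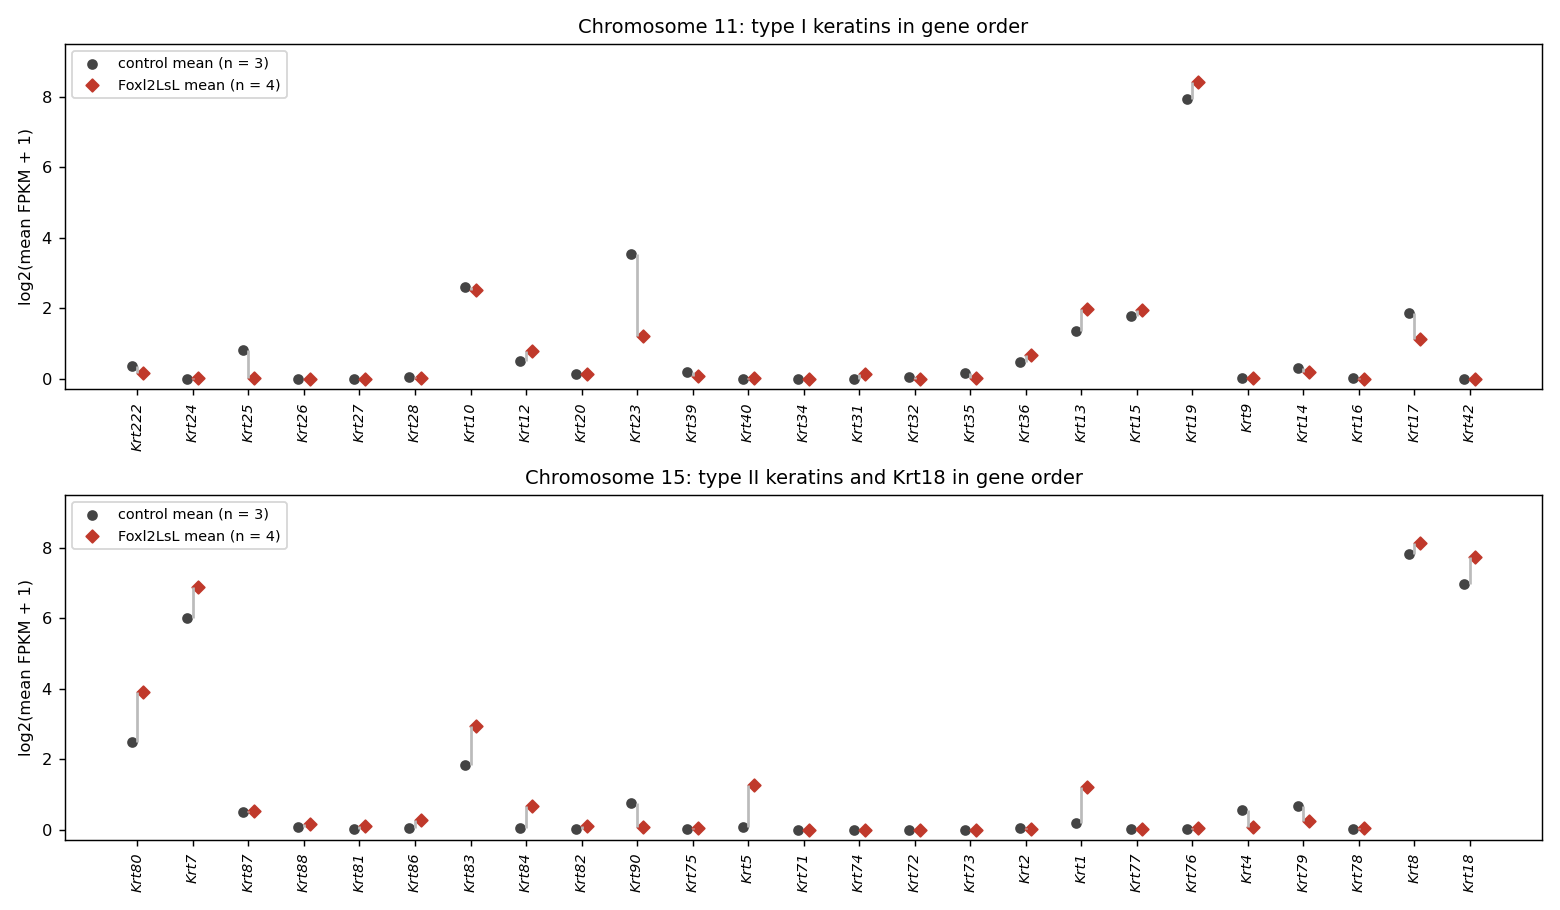
Mean level of each located keratin, as log2 of mean FPKM + 1 (vertical axis), in gene order along chromosome 11 (upper) and chromosome 15 (lower), for controls (n = 3) and Foxl2LsL libraries (n = 4). The few abundant members, Krt19 above and Krt7, Krt8 and Krt18 below, stand out from the other members, many of which are near 0 in both groups. Krt80 beside Krt7 and Krt15 beside Krt19 are not near 0.

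Of 11 genes that link keratin filaments to junctions or regulate them, 9 were tested, 2 were higher (Evpl and Plec) and 1 lower (Tchp), beside 40.6% of all tested genes called, with a median log2 fold change of 0.37. Evpl, the envoplakin of the cornified envelope, was at 6.11, 4.70 and 2.59 FPKM in controls 1, 2 and 4 and at 12.6, 8.42, 11.1 and 13.7 FPKM in Foxl2LsL 1 to 4 (log2 fold change 1.22, adjusted p = 0.00644, limma). Dsp, which anchors keratins at desmosomes, had overlapping groups (log2 fold change 0.37, adjusted p = 0.140, limma).

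Of 21 genes of stratification and the cornified envelope, 11 were tested, 5 were higher (Calml3, Klf4, Perp, Zfp750 and Grhl3) and 0 lower (limma). Over all tested genes 16.7% were higher and 23.9% lower. Over both directions together the share called was near the 40.6% of all tested genes. The median log2 fold change of the 11 was 1.09, beside -0.05 over all tested genes. Klf4, a transcription factor of differentiating epithelium, was at 13.9, 12.54 and 12.1 FPKM in controls 1, 2 and 4 and at 84.0, 43.9, 57.8 and 85.3 FPKM in Foxl2LsL 1 to 4 (log2 fold change 2.26, adjusted p = 0.000532, limma). Calml3, a calmodulin-like protein of stratified epithelium, was at 0.254, 0.928 and 0.385 FPKM and at 7.95, 6.09, 7.18 and 5.69 FPKM (log2 fold change 2.36, adjusted p = 0.000173, limma). Both stood clear of the controls in every library. Ivl, which encodes involucrin, was at 0.055 to 0.935 FPKM in controls and 0.020 to 0.103 FPKM in the Foxl2LsL libraries, with overlapping groups, and Sprr1b and Dsg1a were listed at 0 in all 7. Tgm1, a transglutaminase that cross-links the envelope, was below the filter and lower in every Foxl2LsL library (0.253 to 0.371 FPKM, against 0.375 to 0.965 FPKM). Dsp, Ivl, Tgm1, Prss29, Sprr1b and Dsg1a were named after their values were seen.

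Among 15 other intermediate filament genes, 8 were tested, 5 were lower (Nes, Lmnb1, Lmnb2, Vim and Lmna) and 1 higher (Synm), beside 40.6% of all tested genes called, with a median log2 fold change of -0.55. Markers of other cell types were also called (limma), beside 16.7% of all tested genes higher and 23.9% lower. Of 5 endothelial markers 4 were lower, and of 7 stromal markers 3 were lower and 1 higher. Of 6 smooth muscle markers 2 were higher, as were 2 of 4 tested leukocyte markers. Summed FPKM of the endothelial markers was 95.2 to 132 in controls and 64.4 to 71.0 in Foxl2LsL libraries. For stroma it was 794 to 1180 and 1277 to 1473, and for smooth muscle 827 to 1643 and 1468 to 1913. For leukocytes it was 22.1 to 32.5 and 34.5 to 70.5. The stromal sum includes Dcn, the 1 higher marker, at 367 to 467 FPKM in controls and 922 to 1034 FPKM in Foxl2LsL libraries. The median log2 fold change of the 7 stromal markers was -0.71. The part of these cell types in the filament values was not tested. Vim, the filament of stromal cells, was at 170, 196 and 288 FPKM in controls 1, 2 and 4 and at 140, 140, 148 and 149 FPKM in Foxl2LsL 1 to 4 (log2 fold change -0.56, adjusted p = 0.0306, limma). Its groups did not overlap, and control 4 was the highest. For mesothelial cells, which also make simple keratins, 6 genes were listed and all were tested. Of these Wt1 alone was lower past the threshold and 0 were higher (limma). The others did not pass, with log2 fold changes from -0.81 (Msln) to 0.33 (Gpm6a). The summed level of the 6 genes was 86.7 to 144 FPKM in controls and 47.5 to 119 FPKM in Foxl2LsL libraries. This sum includes Wt1, at 35.1 to 54.6 FPKM in controls and 20.1 to 28.4 FPKM in Foxl2LsL libraries. The share of these cells in the keratin values was not tested.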

How the data were processed

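RNA of whole uterus was sequenced in 3 control and 4 Foxl2LsL libraries. The authors deposited FPKM values for each library and the length of each gene in bases, per the file headers. STAR 2.5.2b, featureCounts 1.5.0-p1 and mm10 are named in the submitters' processing notes, without role or order, and the annotation, use of strand and filters are not given in the sources used here. Groups and replicate numbers came from the sample titles.

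FPKM was converted to log2(FPKM + 1), which understates changes of low genes. Genes with a mean of at least 1 FPKM (13334) were fitted with limma 3.58.1 in R 4.3.3 (trended eBayes), adjusted by Benjamini-Hochberg, with a threshold of 0.05. Single values were compared by a two-sided exact permutation test over samples. Whole fragments were recovered from FPKM and length: 100% of the 1653 to 1832 low values used per library lay within 0.1 of a whole number. Detection was set at 3 fragments, for counting error only. The fit was tested on simulated data. Coordinates came from GENCODE M21 (GRCm38) by symbol and promoters from RefSeq on GRCm38.p6, with Python 3.11.15 and pandas 2.3.3.

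The members and gene lists were chosen with earlier results of these data known. All members are counted in a class, but some below the filter are not named. Simple and basal keratins, Krt4 and Krt13, every keratin past the filter, Foxl2, Epcam, Cdh1, Trp63 and Vim were named whatever their result. From each list, up to 3 genes past the threshold with the largest change and separate groups were to be described, and calls are otherwise listed by name.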

Additional observations from a re-analysis of the deposited data

Results flagged for a closer look

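Of 19 keratin levels and sums screened in the 4 Foxl2LsL libraries, 1 had a library set far apart from the rest. Krt8 was at 214 FPKM in Foxl2LsL 2, against 295 to 308 FPKM in the other 3. The gap was 0.864 of the whole range. Chance alone sets off about 1 in 20 such groups. The summed epithelial markers were also lowest in Foxl2LsL 2 (778 FPKM, against 1053 to 1276), and their part in the Krt8 value was not tested.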

How the results depend on the processing

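Krt18, Krt23 and Krt80 kept their calls under the 17 alternatives that change 1 choice at a time. With no filter and a second change, Krt18 lost its call when any library but control 1 was left out. The direction of called keratins did not turn under any alternative run. Leaving out single libraries gave 4 to 7 called keratins (against 6) and 3853 to 5328 called genes (against 5409). It gave 4 to 8 epithelial markers (against 5), 3 to 6 keratin linkers (against 3), 3 to 7 other intermediate filament genes (against 6), and 6 to 11 keratins with no filter (against 9). The highest counts of linkers and epithelial markers came without control 1, the lowest of filaments without Foxl2LsL 3. Uncalled keratins changed sign: Krt10 ranged from -0.24 to 0.057, Krt15 from -0.15 to 0.58, Krt17 from -0.99 to 0.12, and Krt14 with no filter from -0.21 to 0.0097. The cause was not tested.

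With no filter 3 epithelial markers passed, since the fit then covers 24964 genes, and with a mean of at least 5 FPKM 2 stratification genes were left. Limma-voom on at least 10 fragments, chosen after seeing the data, called 14 keratins against 9. With a replicate block on numbers 1, 2 and 4, 3 keratins (Krt18, Krt23 and Krt80) and 3243 genes passed, and Krt83 had an adjusted p of 0.0982 (0.0426 in the same libraries without the block). The same libraries without the block gave 4 keratins and 3 filament genes. With no filter and the block 0 keratins passed in limma, Krt18, Krt23 and Krt80 included (11 had an unadjusted p under 0.05). Deviations of same-numbered libraries correlated at 0.228, -0.0306 and -0.112. The labels do not say whether the numbers pair libraries, and correlations from so few libraries cannot decide it.

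Set against Epcam alone in place of the 15 epithelial markers, Krt7 differed by 0.68 (against 0.39), Krt8 by 0.078 (against -0.22), Krt18 by 0.53 (against 0.24) and Krt19 by 0.26 (against -0.04). As deposited these were 0.96, 0.36, 0.81 and 0.54. Depth limits the hair keratins, most of which rest on a few fragments.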

Other observations

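Within the Foxl2LsL group, libraries 1 and 4 had the higher levels of some epithelial genes besides Krt5 and Krt84, but not of all. Elf3, an epithelial transcription factor, was at 322, 97.3, 136 and 259 FPKM in Foxl2LsL 1 to 4. Sprr1a, a cornified envelope precursor, was at 27.7, 2.25, 8.89 and 19.0 FPKM. In contrast, the epithelial marker Ehf was lowest in libraries 1 and 4, at 35.5, 64.6, 59.0 and 40.8 FPKM. The myeloid gene Itgam was higher in libraries 1 and 4, at 12.2, 2.93, 4.21 and 17.97 FPKM. Cd68, from the same list of leukocyte markers, was also highest in libraries 1 and 4, at 28.6, 12.7, 20.2 and 32.9 FPKM. Csf1r, also a leukocyte marker, did not follow Itgam, at 13.4, 15.1, 11.2 and 15.5 FPKM. The adipocyte gene Adipoq was lowest in libraries 1 and 4, at 0.409, 15.2, 27.3 and 2.40 FPKM. These genes were singled out after their values were seen and no comparison within the group was tested.

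All 4 listed cell cycle genes were lower past the threshold (limma), beside 23.9% of all tested genes. Mki67, a marker of dividing cells, was at 19.8, 19.0 and 9.87 FPKM in controls 1, 2 and 4 and at 3.29, 1.19, 2.43 and 2.33 FPKM in Foxl2LsL 1 to 4. Among the controls the lowest Mki67 was again in control 4.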
